A study of Homo sapiens with 6 samples.

Results

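The zinc finger genes described here are the protein-coding genes of the deposited table whose symbols begin with ZNF, ZSCAN, ZKSCAN, ZFP or ZBTB followed by a digit. By that rule 229 of the 7983 listed genes were members, and 5 further genes with such symbols that are not protein-coding were left out. The libraries came from Kasumi-1, a human acute myeloid leukaemia cell line with the t(8;21) translocation that joins RUNX1 to RUNX1T1. SETD8 knockout cells, made with CRISPR/Cas9 and labelled sgSETD8, were set against control cells with a non-targeting guide, labelled sgNT and WT, with 3 RNA-seq libraries in each group and the same serum-containing RPMI medium for both. SETD8, now named KMT5A, is the enzyme that adds a single methyl group to lysine 20 of histone H4. Nothing in the labels ties a library's number to a guide, a culture or a clone, so p-values measure only the spread between these libraries, which may be technical.

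Zinc fingers of the C2H2 type hold a zinc ion between a pair of cysteines and a pair of histidines, and strings of them read DNA sequence. Many ZNF proteins carry a KRAB domain, which binds the co-repressor TRIM28 and through it brings histone methylation and HP1 proteins to their targets, often transposable elements. ZBTB proteins join the fingers to a BTB domain, which pairs proteins and binds co-repressors, and ZSCAN and ZKSCAN proteins carry a SCAN domain, which joins proteins to each other. KRAB genes multiplied by tandem duplication and lie in large clusters on chromosome 19. ZFP36 and its relatives share the symbol but carry another kind of finger and bind AU-rich RNA.

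Most members were lower in the knockout. Values are normalized read counts, and log2 fold changes set knockout over control after adding 1 to each value. Of 227 members tested with limma, 39 were higher, 172 lower and 16 were not called at an adjusted p below 0.05. Over all 7516 tested genes, 47.3% were called higher and 46.7% lower. The median log2 fold change was -0.47 over the members and 0.14 over all tested genes, and 0.18 over protein-coding genes outside the family. The median over all genes turned to -0.12 with no filter on low values and in the authors' deposited table, while that of the members stayed at -0.47. A member's call as such says little, since 94.1% of all tested genes were called: the authors' deposited table lists no gene whose unadjusted p exceeds 0.049998. The direction and the size are therefore what is described here. Of the 606 family genes that GENCODE release 29 annotates, 37.8% were in the table, against 35.2% of all protein-coding genes, and the others were not analysed here.

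The shift was broad and mostly shallow. The lower and upper quartiles of the members' log2 fold changes were -0.74 and -0.27, and 179 of the 211 called members changed by less than 2-fold. A change of at least 2-fold was called higher for 8 members and lower for 24, where 8.34% and 10.7% of all tested genes were called so. Summed over the 229 members, normalized counts were 115645, 115293 and 117757 in the knockout libraries, against 149233, 146940 and 146962 in the control libraries, so the groups did not overlap. Members took 0.947%, 0.956% and 1.00% of the reads in listed genes in the knockout libraries, against 1.33%, 1.29% and 1.28% in the control libraries. In bulk RNA, fewer cells of a type and less RNA per cell cannot be told apart. The groups did not overlap for 214 members, 38 of them higher and 176 lower, where 95.4% of all tested genes did not overlap, 48% higher and 47.4% lower.

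Reads in the listed genes ranged from 10966349 to 12557974 per library. KMT5A itself had 879.7, 933 and 939 in the knockout libraries, against 1191, 1212 and 1255 in the control libraries, a log2 fold change of -0.41 with an adjusted p of 5.65e-05. Its RNA was thus still present in the knockout libraries, and the counts cannot show whether the protein was lost. Of the markers of the line, RUNX1T1, CD34, KIT, MPO and CD33 were listed. MPO had 1569.7, 1515 and 1539 in the knockout libraries, against 11862, 12604 and 12297 in the control libraries. CD33 had 1020.4, 951 and 998 in the knockout libraries, against 374, 458 and 474 in the control libraries. KIT was lower at a log2 fold change of -0.48, and RUNX1T1 and CD34, at 0.15 and 0.13, were not called. Markers of the line thus moved in both directions or were not called. Of the markers of other cells, EPCAM, an epithelial one, averaged 1936 in the knockout libraries and 1349 in the control libraries. CD3E, MS4A1, HBB and COL1A1 were not among the listed genes and were not analysed here. Their part in the zinc finger results was not tested.

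The symbol is an imperfect guide to the protein. A C2H2 motif, searched as 2 cysteines 2 to 4 residues apart, 12 residues, and 2 histidines 3 to 5 residues apart, was found in the longest coding sequence of 221 members, with a median of 9 and up to 33. The 8 without it were ZFP36, ZFP36L1, ZFP36L2, ZBTB8OS, ZNF330, ZNF703, ZNF720 and ZNF862. Without these 8, 38 members were higher and 165 lower, and the median log2 fold change was -0.45.

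The members with the largest changes and at least 50 counts on average span several chromosomes. Gene positions are those of the deposited table, on hg38. ZNF618 (chr9:113876282-114056591), whose protein partners the UHRF2 protein, had 1.04, 0.993 and 10.3 in the knockout libraries, against 238, 203 and 216 in the control libraries. It was near off in the knockout, with 13 reads against 660, a ratio of 53.4 (95% counting interval 29.7 to 96.4), and knockout 3 held most of those 13 reads. ZNF510 had 53.2, 63.5 and 82.2 in the knockout libraries, against 259, 286 and 262 in the control libraries (log2 fold change -2.02, SE 0.18, adjusted p = 5.1e-09). ZNF385C had 92.8, 92.3 and 85.0 in the knockout libraries, against 280.0, 357 and 293 in the control libraries (log2 fold change -1.77, SE 0.15, adjusted p = 3.7e-09). In both the 3 knockout libraries lay well below the 3 control libraries. ZNF436 had 219, 280.0 and 298 in the knockout libraries, against 689.8, 668 and 674 in the control libraries, and ZBTB43 had 306, 299 and 339 in the knockout libraries, against 794, 814 and 783 in the control libraries. ZKSCAN2 was lower at a log2 fold change of -1.32, ZNF703 at -1.45, ZNF805 at -1.31 and ZNF485 at -1.30. ZNF703, a co-repressor of the NET family, lacks a C2H2 motif.

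Among the higher members ZNF468 stood first. ZNF468 (chr19:52838008-52890375) had 141, 106 and 99.9 in the knockout libraries, against 11.2, 9.72 and 3.96 in the control libraries (log2 fold change 3.73, SE 0.36, adjusted p = 2.07e-08), so every knockout library held far more than any control library. ZNF783 had 1007, 941 and 998 in the knockout libraries, against 478, 485 and 471 in the control libraries (log2 fold change 1.04, SE 0.08, adjusted p = 6.86e-10). ZNF706, which encodes a small single-finger protein, had 2448, 2396 and 2297 in the knockout libraries, against 1438, 1408 and 1277 in the control libraries (log2 fold change 0.79, SE 0.06, adjusted p = 1.3e-09). For each of these 3 genes the groups lay far apart. ZNF530, ZNF772, ZNF605, ZNF696, ZBTB47 and ZNF385A were higher with log2 fold changes of 1.28, 0.81, 0.80, 0.80, 0.75 and 0.70. ZNF235, with 82.3, 51.6 and 64.4 in the knockout libraries, against 37.8, 39.9 and 39.6 in the control libraries, was called at an adjusted p of 0.0357, and leaving out any library other than knockout 2 took that call away. Of the 50-base words of ZNF468, 9.89% are shared with other genes, so some of its reads may have been counted elsewhere. With the median of the other genes within 2 Mb removed, ZNF605 and ZNF696 were no longer called.

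**Figure D1:**
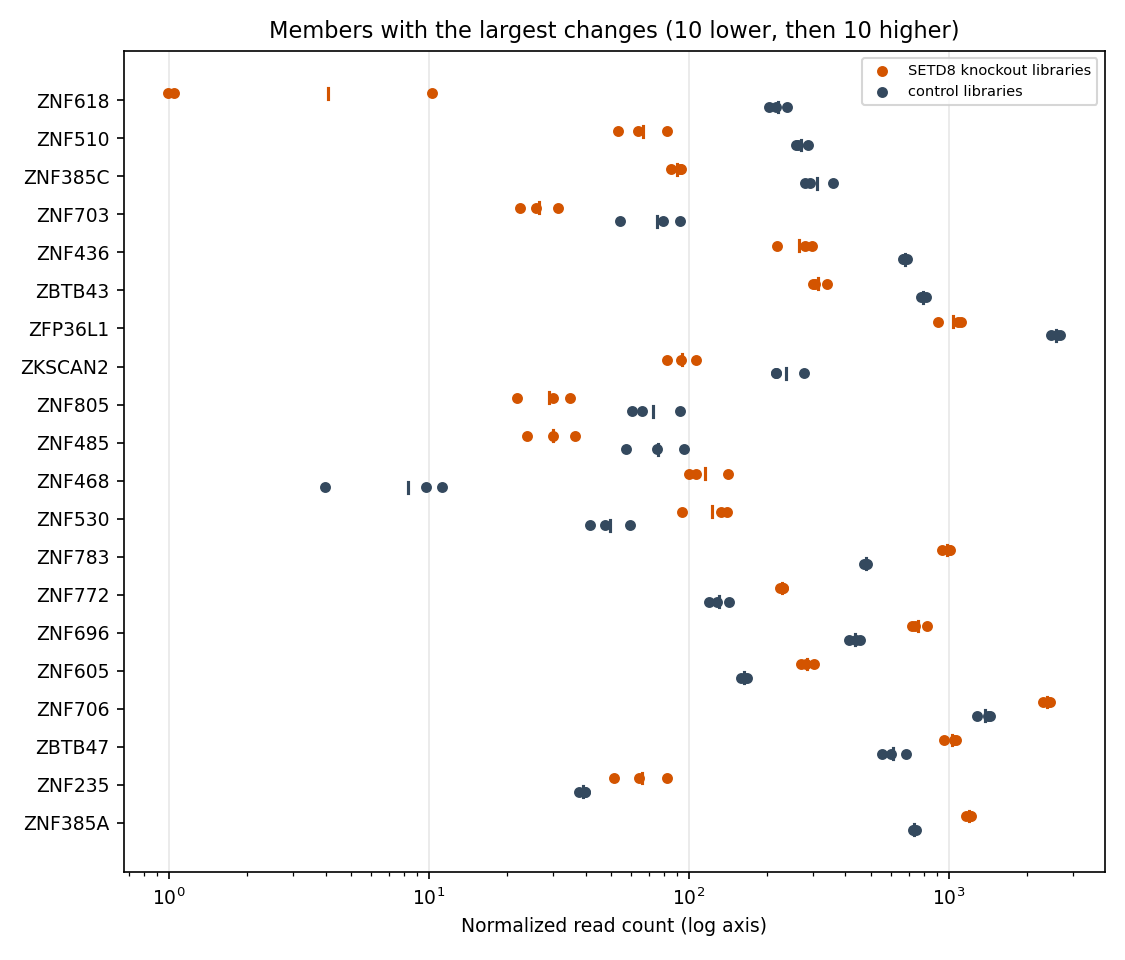
Normalized read counts (log axis) of the 10 lower and 10 higher members with the largest changes, 1 row per gene, with 3 SETD8 knockout libraries above 3 control libraries and a tick at each group's mean. ZNF618 lies between 0.993 and 10.3 in the knockout libraries and between 203 and 238 in the control libraries.

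A few members are described because one group had almost no reads, a choice made once values were known. ZNF737 (chr19:20535825-20565809) had 0 reads in every knockout library, against 50.1, 73.9 and 51.5 normalized counts in the control libraries. With 0 reads against 177, and 3 reads as the floor for the group, it was at least 59.1-fold lower. ZNF678 (chr1:227563543-227677443) had 0 reads in every knockout library too, against 47.0, 39.9 and 26.8 normalized counts, and was at least 38.3-fold lower. ZNF844 had 7.30, 7.94 and 3.74 in the knockout libraries, against 32.7, 31.1 and 49.5 in the control libraries. ZNF704 was the reverse, with 22 reads in the knockout libraries and 0 in the control libraries, at least 7.13-fold higher, and was too low to be tested, as was ZNF597.

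By symbol prefix the direction was shared. Of 181 tested ZNF genes, 33 were higher and 137 lower, and their median log2 fold change was -0.45. Of 27 ZBTB genes, 5 were higher and 21 lower, with a median of -0.56. All 7 called ZFP genes and all 5 called ZSCAN genes were lower, with medians over the 8 tested of -0.54 and -0.30. The 3 ZKSCAN genes split, with ZKSCAN3, known as a repressor of autophagy genes, at 0.65 and ZKSCAN2 and ZKSCAN8 at -1.32 and -0.44. ZKSCAN3 was no longer called with the median of the genes within 2 Mb removed.

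The ZBTB genes include known regulators of blood cells. ZBTB16, which encodes PLZF and is fused to RARA in a rare promyelocytic leukaemia, had 9.38, 15.9 and 13.1 in the knockout libraries, against 54.2, 55.4 and 56.5 in the control libraries (log2 fold change -2.06, SE 0.34, adjusted p = 4.02e-05). Its groups were well apart, at low counts. ZBTB1, needed for lymphoid cells, had 518, 469 and 453 in the knockout libraries, against 679, 638 and 735 in the control libraries. ZBTB17, the MYC partner MIZ1, had 634, 667 and 672 in the knockout libraries, against 819.6, 931 and 932 in the control libraries. Both were lower, ZBTB1 at -0.51 and ZBTB17 at -0.44 on the log2 scale. ZBTB46, a marker of dendritic cells, was higher with 257, 226 and 290.4 in the knockout libraries, against 167, 197 and 159 in the control libraries, and so was ZBTB7B, which commits T cells to the CD4 lineage, at a log2 fold change of 0.40. Of a list of 19 blood regulators with these prefixes, 12 were listed, 2 higher and 10 lower, with a median of -0.42. ZBTB21, ZBTB6, ZBTB25 and ZBTB26 were lower, at -0.997, -1.03, -0.91 and -0.78. With the median of the other genes within 2 Mb removed, ZBTB6 and ZBTB7B were no longer called, and ZBTB26 turned to 0.03 and was not called. The methyl-CpG reader ZBTB4 had 618, 724 and 695 in the knockout libraries, against 987, 984 and 1027 in the control libraries.

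The ZFP36 family, which binds AU-rich elements and speeds the decay of those RNAs, was lower throughout. ZFP36L1 had 1084, 911 and 1118 in the knockout libraries, against 2462, 2601 and 2679 in the control libraries (log2 fold change -1.32, SE 0.07, adjusted p = 2.99e-12), and ZFP36L2 had 1291, 1233 and 1317 in the knockout libraries, against 2104, 2391 and 2257 in the control libraries (log2 fold change -0.81, SE 0.07, adjusted p = 1.15e-09). ZFP36 had 470.1, 368 and 394 in the knockout libraries, against 709, 627 and 713 in the control libraries (log2 fold change -0.74, SE 0.10, adjusted p = 3.88e-06). The groups did not overlap for any of the 3.

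Members were mostly lower in each of the 3 upper bins of expression level. Of 35 members with a mean of at least 1000, 27 were lower and 6 higher. Of 131 between 200 and 1000, 100 were lower and 22 higher, and of 49 between 50 and 200, 38 were lower and 6 higher. The lower share was 77.1%, 76.3% and 77.6% in these bins, against 39.3%, 48.7% and 52.9% of the other genes at the same levels. Of 12 members between 10 and 50, 7 were lower and 5 higher. The members with the highest means were ZNF292, ZNF24, ZNF609, ZBTB44 and ZNF445. ZNF292 had 2515, 2559.8 and 2774 in the knockout libraries, against 4779, 4317 and 4249 in the control libraries, and ZNF24 had 2467, 2413 and 2322 in the knockout libraries, against 3929, 3618 and 3878 in the control libraries. ZNF445, which guards imprinted regions, had a log2 fold change of -0.32, and ZNF609 one of 0.37, which turned to -0.15 and lost its call with the median of the genes within 2 Mb removed.

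**Figure D2:**
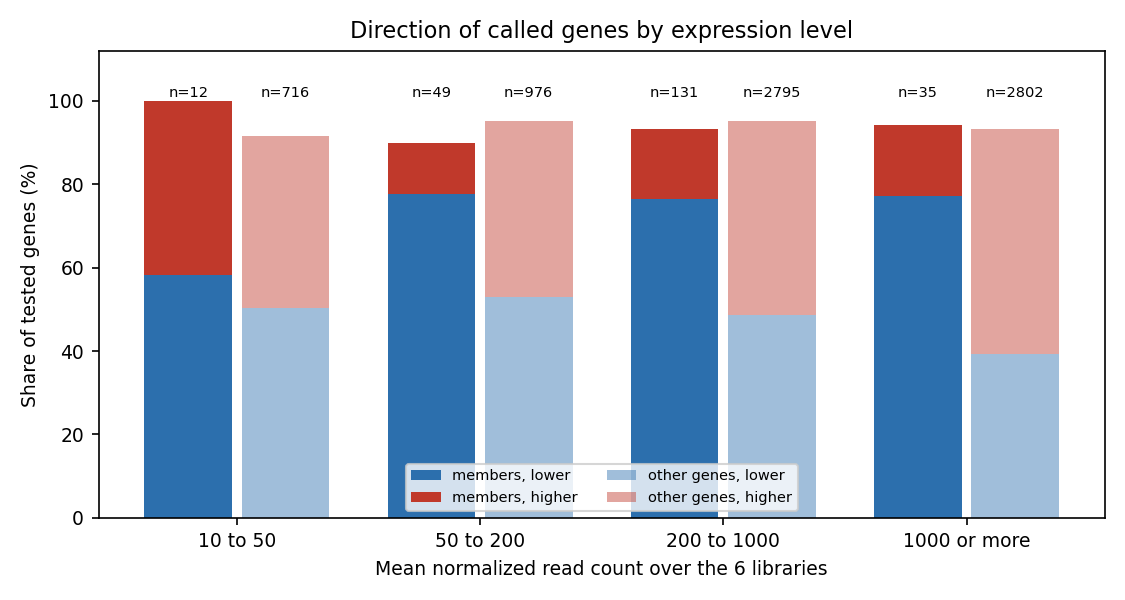
Share of tested genes (%) called lower (blue) and higher (red) in the knockout, by mean normalized read count over the 6 libraries, for members (full colour, left) and other genes (pale, right). At 1000 or more, 77.1% of 35 members and 39.3% of 2802 other genes are lower.

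Other genes moved by chromosome, while the members leaned lower on most. The members' median log2 fold change was below 0 on all 22 chromosomes that hold members and below that of the other genes on 21. Among the 18 chromosomes with at least 3 tested members it was below that of the other genes on 17. The exception was chromosome 20, with a median of -0.37 over 4 members and -0.43 over the other genes. Chromosomes 4, 5, 21 and 22 hold only 1 or 2 members, and the 1 on chromosome 5 was not called. On chromosome 15, 42.9% of 7 members and 40.8% of the other genes were lower. On 13 of them the other genes' median was above 0. All 12 members on chromosome 9, all 9 on chromosome 10, all 5 on chromosome 17 and all 4 on chromosome 14 were lower. On chromosome 16, 18 of 20 tested members were lower. With the median of the other genes within 2 Mb removed, 5 of the 12 on chromosome 9 and 7 of the 9 on chromosome 10 were still called lower. So were 6 of the 18 on chromosome 16, 4 of the 5 on chromosome 17 and all 4 on chromosome 14. Around those on chromosome 14 that median was above 0, so its removal only lowered them further. For ZNF248, ZNF25 and ZNF33A on chromosome 10 fewer than 5 other tested genes lay that near, and nothing was removed. Other genes were also mostly lower on chromosomes 9, 10, 16, 17 and 20, with 73.2%, 59.5%, 63.9%, 73.5% and 70.9% called lower. Away from those 5 chromosomes, a split made after the values were seen, 125 of 177 members were lower and 36 higher (median -0.42), against 2152 lower and 3060 higher of 5559 other genes (median 0.25).

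**Figure D3:**
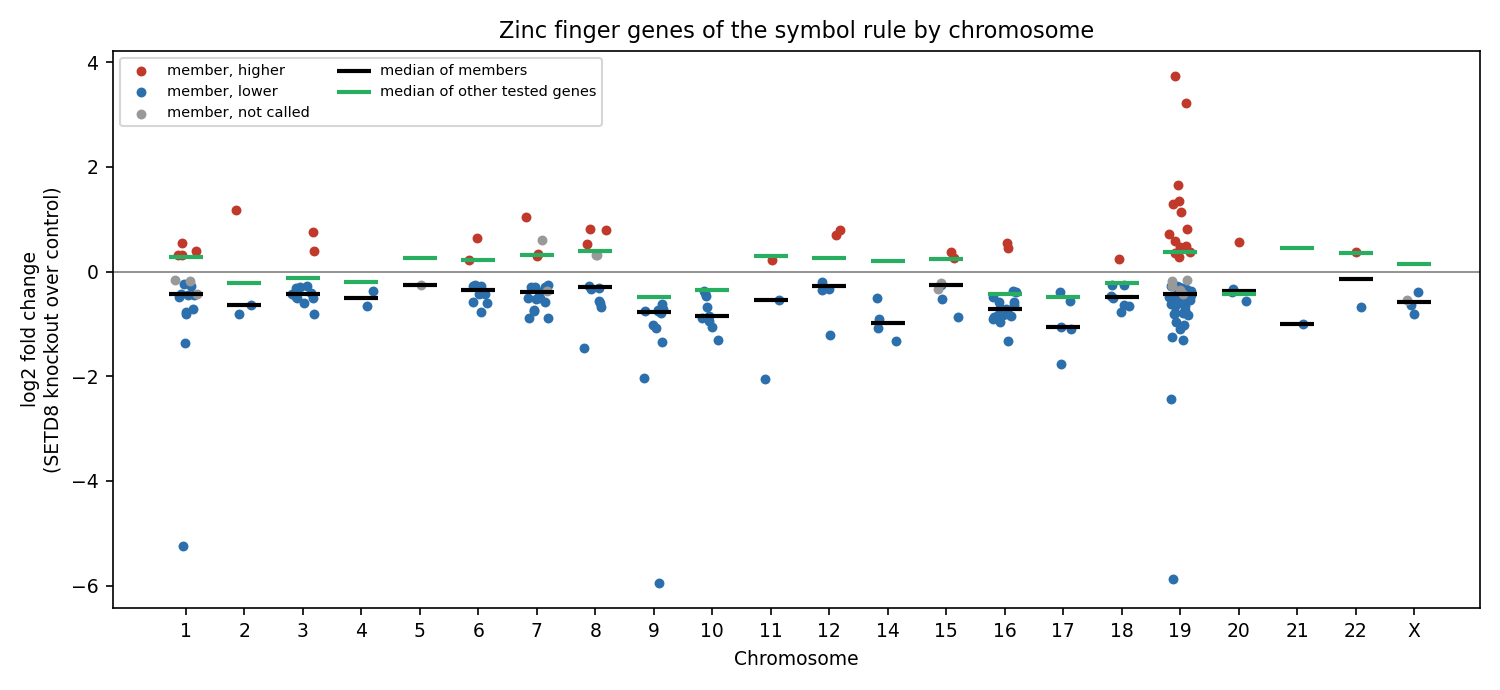
Log2 fold change (SETD8 knockout over control) of each tested member by chromosome, red where called higher, blue where lower and grey where not called, with black ticks at the members' median and green ticks at that of the other tested genes. The black tick is below 0 on all 22 chromosomes.

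Chromosome 19 holds 264 of the 606 annotated family genes, of which 66 were listed. There 14 members were higher, 47 lower and 5 not called, with a median log2 fold change of -0.43. The 443 other tested genes of that chromosome went the other way, with 313 higher and 105 lower and a median of 0.37. All 47 lower members there stayed called lower with the median of the other genes within 2 Mb removed, which could hardly end those calls. Around them that median was above 0, so its removal lowered their values further. For ZNF254 and ZNF675 too few other tested genes lay within 2 Mb, and nothing was removed. Chained at gaps under 1 Mb, 56 of the 66 fell into 7 clusters of at least 3.

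In cluster 1 (chr19:8806170-9675086) 4 of 5 members were lower and ZNF562 was higher. Of the 50-base words of ZNF562, 17.5% are shared with other genes, and it was no longer called with the median of the genes within 2 Mb removed. Cluster 2 (chr19:11559374-12633840) had all 4 lower, such as ZNF791 at -0.53 and ZNF627 at -0.52. In cluster 3 (chr19:19785839-21556270) 7 of 9 were lower and 1 higher. ZNF85 had 174, 153 and 193 in the knockout libraries, against 321, 311 and 280.4 in the control libraries, and ZNF93, which binds LINE-1 elements, had 458, 439.9 and 467 in the knockout libraries, against 679, 639.7 and 605 in the control libraries. The higher gene of cluster 3 was ZNF682, with 61.5, 28.8 and 43.0 in the knockout libraries, against 20.4, 13.6 and 23.8 in the control libraries, and its call was lost without knockout 1, without control 2 and with the median of the genes within 2 Mb removed. Cluster 4 (chr19:36182060-37692337) had 7 of 9 lower and 0 higher, with ZNF527 at -1.10. In cluster 5 (chr19:51571298-53103436) ZNF468 and ZNF808 were higher and 7 were lower. ZNF808 averaged under 50 counts and shares 28.6% of its 50-base words with other genes, so its reads may be split with those. With the median of the genes within 2 Mb removed, ZNF808 was at 0.99 (adjusted p = 0.044 in limma). ZNF160, reported to repress TLR4, had 677, 626 and 738 in the knockout libraries, against 1373, 1374 and 1375 in the control libraries. In cluster 6 (chr19:55476332-56160893) 5 of 6 members were lower and 0 higher, while of 7 other tested genes inside it 5 were higher and 0 lower. Of the other tested genes inside cluster 5, 3 were higher and 1 lower, and the 1 inside cluster 3 was lower.

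**Figure D4:**
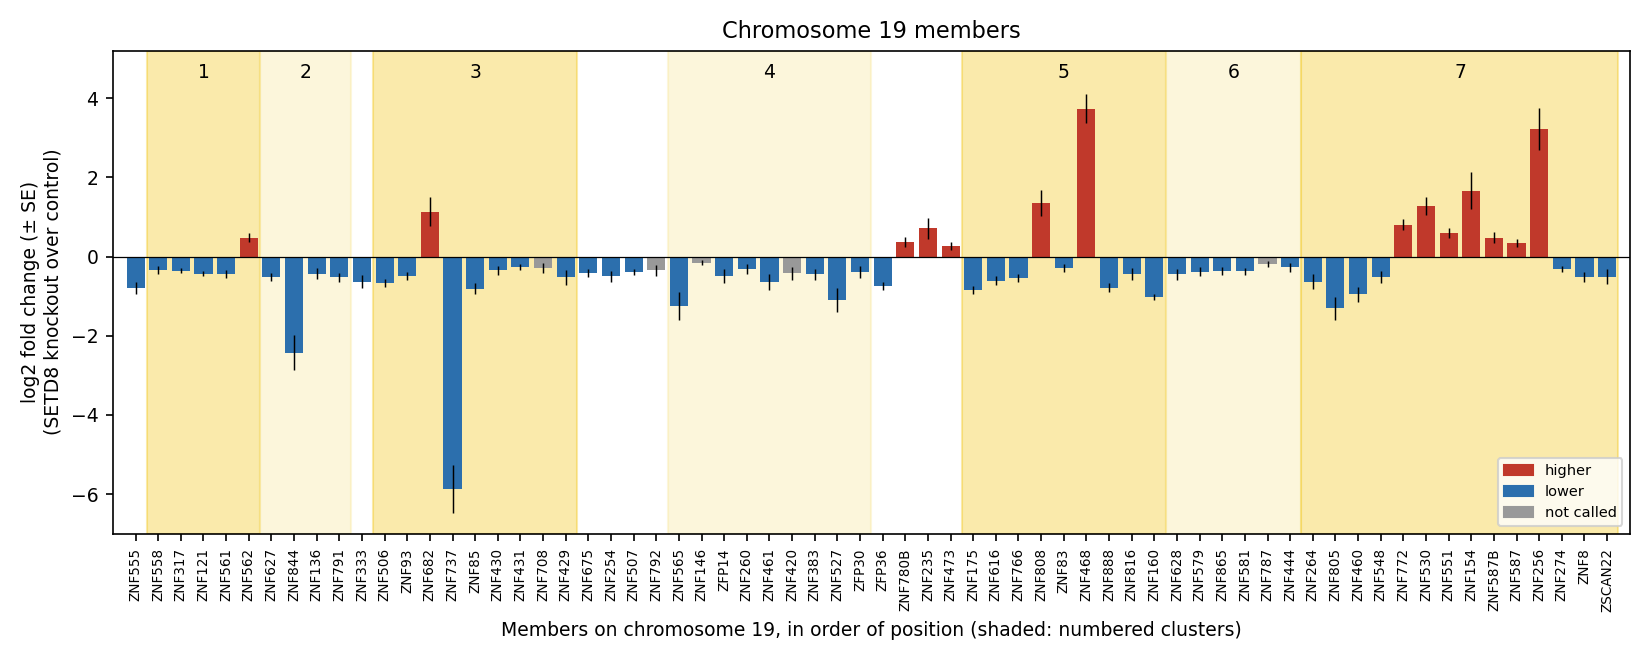
Log2 fold change (SETD8 knockout over control, error bars SE) of the 66 members on chromosome 19 in order of position, red where called higher, blue where lower and grey where not called, with the 7 clusters shaded. Cluster 7 holds 7 neighbouring higher members.

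Cluster 7 (chr19:57191500-58342332), at the end of the long arm, was evenly divided, with 7 members higher and 7 lower. The 7 higher members were neighbours in the table, ZNF772, ZNF530, ZNF551, ZNF154, ZNF587B, ZNF587 and ZNF256, across chr19:57466663-57947675. That stretch of 481 kb holds 22 annotated family genes, so 15 in it were not listed. It was picked out after the values were seen and has no test. The members on both sides were lower: ZNF264, ZNF805, ZNF460 and ZNF548 before it and ZNF274, ZNF8 and ZSCAN22 after it.

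ZNF772 had 224, 230.4 and 231 in the knockout libraries, against 143, 128 and 119.9 in the control libraries, and ZNF530 had 132, 94.3 and 140.1 in the knockout libraries, against 59.3, 47.6 and 41.6 in the control libraries. ZNF154, whose promoter is often methylated in tumours, had 39.6, 36.7 and 33.6 in the knockout libraries, against 19.4, 3.89 and 15.9 in the control libraries (log2 fold change 1.66, SE 0.47, adjusted p = 0.0069). The groups did not overlap for any of the 7. ZNF256 had 42.7, 22.8 and 33.6 in the knockout libraries, against 2.04, 1.94 and 3.96 in the control libraries, and its 100 reads against 8 gave a ratio of 12.5 (95% counting interval 6.07 to 29.6). ZNF551 and ZNF587 were higher by 0.58 and 0.35 on the log2 scale. ZNF587B was higher by 0.48, a call lost without knockout 1 or knockout 2. The median of other genes within 2 Mb was higher as well, although the 2 tested inside cluster 7 were lower, at -1.08 and -1.06. With that median removed ZNF551, ZNF587B and ZNF587 were no longer called, at 0.33, 0.22 and 0.09. ZNF772, ZNF530, ZNF154 and ZNF256 were still called, at 0.49, 1.01, 1.40 and 2.96. ZNF587B and ZNF587 share 38.0% and 20.2% of their 50-base words with other genes, so their reads may be split with those.

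Of the flanking genes, ZNF805 had 21.9, 34.8 and 29.9 in the knockout libraries, against 92.0, 66.1 and 60.4 in the control libraries, and ZNF460 had 96.9, 69.5 and 124 in the knockout libraries, against 177, 195 and 179 in the control libraries. ZNF274, which binds the finger-coding ends of zinc finger genes and recruits the methyltransferase SETDB1, had 543, 599 and 586 in the knockout libraries, against 752, 711 and 685 in the control libraries (log2 fold change -0.31, SE 0.09, adjusted p = 0.00546). ZNF548 had 212, 149 and 176 in the knockout libraries, against 234, 269 and 263 in the control libraries, and its call was lost without knockout 2. ZSCAN22 lost its call without knockout 2, knockout 3 or control 3.

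**Figure D5:**
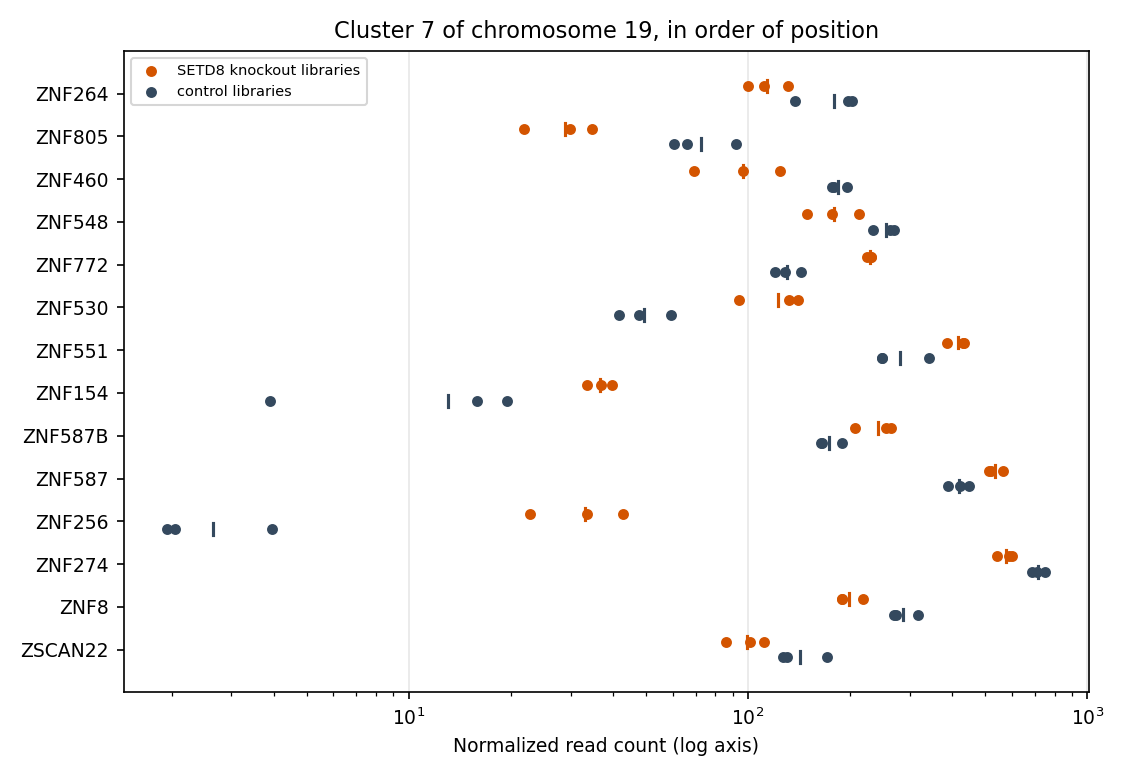
Normalized read counts (log axis) of the 14 members of cluster 7 on chromosome 19 in order of position, with 3 SETD8 knockout libraries above 3 control libraries in each row and a tick at each group's mean. From ZNF772 to ZNF256 every knockout library lies above every control library, and in the rows before and after them every knockout library lies below.

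The promoters of 6 of those 7 neighbours share a short word, and the stretch around it is shown for each gene because the members on both sides lack that word. Sequences are from RefSeq (GRCh38.p14), on the gene's strand, 80 bases each, and capitals mark ACATTACC, or in ZNF551, which lacks it, the overlapping word CTACATT.
ZNF772, chr19:57477607-57477686, minus strand: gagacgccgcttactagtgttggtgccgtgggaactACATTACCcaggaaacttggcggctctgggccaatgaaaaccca
ZNF530, chr19:57599757-57599836, plus strand: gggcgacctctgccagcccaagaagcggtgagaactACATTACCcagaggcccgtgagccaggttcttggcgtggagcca
ZNF551, chr19:57681843-57681922, plus strand: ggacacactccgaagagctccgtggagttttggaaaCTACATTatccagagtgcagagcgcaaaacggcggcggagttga
ZNF154, chr19:57709279-57709358, minus strand: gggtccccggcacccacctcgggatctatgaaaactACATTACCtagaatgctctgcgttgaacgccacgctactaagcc
ZNF587B, chr19:57830135-57830214, plus strand: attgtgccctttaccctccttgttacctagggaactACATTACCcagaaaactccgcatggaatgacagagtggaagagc
ZNF587, chr19:57849709-57849788, plus strand: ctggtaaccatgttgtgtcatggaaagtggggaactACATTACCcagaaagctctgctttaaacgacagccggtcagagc
ZNF256, chr19:57947759-57947838, minus strand: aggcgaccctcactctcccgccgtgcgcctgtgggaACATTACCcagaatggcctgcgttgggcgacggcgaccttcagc

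The windows searched ran from 250 bases before to 50 after the annotated start, on both strands. ACATTACC was in 6 of the 7 neighbours, starting 84 to 128 bases before the annotated start. The word was in 0 of the 7 lower members of cluster 7 and in 0 of 145 lower members anywhere. Of 33 higher members these 6 alone held it, so it was also absent from every higher member outside the stretch. It was in 0.385% of 15842 protein-coding promoters and in 9 of 311 family genes outside the table. Those 9 were ZNF17, ZNF416, ZNF418, ZNF479, ZNF550, ZNF586, ZNF599, ZNF749 and ZNF814. They have no values here, so whether the word goes with direction could not be seen for them and was not tested. The word was found by reading these promoters after the values were seen, as 1 of 10 words tried, so its presence in them is partly by choice and carries no test. The shorter CATTACC was in the same 6 and in 2 lower members, ZNF277 and ZNF84, and CTACATT was in 8 lower members, ZNF274 and ZNF805 among them. Of the other words tried, CCCAGAA was in 3 of the 7 neighbours, CCAGAATG in 1 and TCCAATCA in 0, and 3 longer ones were in 4, 0 and 0. Neighbouring zinc finger genes arose by duplication, so their promoters are not independent.

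Another word recurred in clusters 2 and 3. CCAATCAGG was in 3 of 4 promoters of cluster 2 and in all 8 promoters of cluster 3 that RefSeq gave. It was in 2 of 33 higher and 21 of 145 lower members, and 1.55% of all promoters held it. Members and family genes outside the table held it about as often, at 24 of 193 (12.4%) and 41 of 311 (13.2%). The word was among the 10 tried with the values in view, so it carries no test. The only higher gene of cluster 3 is ZNF682, whose call was lost in the settings named above. Here are 3 lower genes of the cluster and the higher ZNF682, with CCAATCAGG, which contains the CCAAT box, in capitals.
ZNF93, chr19:19900827-19900906, plus strand: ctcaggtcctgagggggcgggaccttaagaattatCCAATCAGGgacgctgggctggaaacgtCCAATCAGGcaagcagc
ZNF737, chr19:20565823-20565902, minus strand: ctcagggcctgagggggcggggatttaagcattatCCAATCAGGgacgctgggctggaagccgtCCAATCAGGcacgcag
ZNF85, chr19:20923164-20923243, plus strand: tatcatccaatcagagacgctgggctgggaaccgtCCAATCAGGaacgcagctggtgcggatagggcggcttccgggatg
ZNF682, chr19:20039513-20039592, minus strand: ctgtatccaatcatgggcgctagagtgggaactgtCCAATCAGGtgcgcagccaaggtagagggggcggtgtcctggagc

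Another 6 motifs were searched by name. Over the 193 members with a RefSeq promoter, the ETS word CCGGAAG was in 40.9%, against 14.2% of all promoters, and the NFY word CCAAT in 49.2%, against 36.4%. CCGGAAG was in 33.3% of the higher members and 42.8% of the lower ones. The SP word GGGCGG was in 67.4% of members, against 58.5% of all promoters, the ZNF143 word ACTACAA in 7.25%, against 3.14%, the YY1 word AAGATGGC in 4.15%, against 3.91%, and the palindromic NRF1 motif in 3.11%, against 1.75%. By direction, GGGCGG was in 57.6% of higher and 69% of lower members, and CCAAT in 54.5% and 49.7%. ACTACAA was in 0 of 33 higher and 14 of 145 lower members, and the NRF1 motif in 0 and 5. AAGATGGC was in 3.03% of higher and 4.83% of lower members. None of these splits was tested. The median number of CpG sites was 23 in the members and 22 in all promoters. Such matches are descriptions of letters, not of binding.

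Members were mostly lower with and without a KRAB pattern. A loose KRAB pattern was found in 98 members, 22 of them higher and 69 lower, with a median of -0.49, and it was absent from 131, 17 higher and 103 lower, with a median of -0.46. The pattern was adjusted after calls had been seen, since stricter versions missed known KRAB genes. The version used can miss KRAB genes as well, so the 131 without it may include some and are not a class without KRAB. The 2 other versions held 91 members (18 higher, 66 lower) and 83 members (21 higher, 56 lower), and the difference between the classes was not tested. Of 7 listed KRAB genes known to bind retroelements, ZNF587 and ZNF808, the latter averaging under 50 counts, were higher. ZNF93, ZNF675, ZNF267, ZNF430 and ZNF85 were lower. The call of ZNF430 was lost without knockout 2 or control 2. ZNF267 had 716, 692 and 647 in the knockout libraries, against 1246, 1235 and 1190.2 in the control libraries, and with the median of the other genes within 2 Mb removed it was at -0.13 and no longer called, as was ZNF587 at 0.09.

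The machinery that KRAB proteins recruit was divided. Of 36 co-repressor genes on the list 25 were listed, 12 higher and 13 lower, and their median log2 fold change was -0.19. TRIM28 had 9165, 9821 and 9639 in the knockout libraries, against 7526, 7964 and 8442 in the control libraries, and was higher by 0.26 on the log2 scale. The SETDB1 partner ATF7IP had 1689.5, 1739.7 and 1679 in the knockout libraries, against 2634, 2562 and 2344 in the control libraries. The HP1 gene CBX5 had a log2 fold change of -0.32, and UHRF1, which brings DNA methylation to replicated DNA, one of -0.28. CBX3, another HP1 gene, was at 0.29, but at -0.50 with the median of its neighbouring genes removed, and that removal turned the sign of 7 of the 25 genes. Of 8 BTB cofactors, 2 were higher and 5 lower, with BCOR at -0.52.

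Of 8 zinc finger genes listed for general promoter or RNA roles, 4 were in the table. ZNF263 had a log2 fold change of -0.50, and ZNF598, which marks collided ribosomes, of -0.38. ZNF335 was at -0.34 and ZNF76 at 0.23, and the call of ZNF76 was lost when any library other than control 2 was left out. All 4 changed sign, and none was called, once the median of the neighbouring genes was removed.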

How the data were processed

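The authors deposited 1 table with a normalized read count per gene and library, a signal that is never negative; per the file headers it also gives a log2 fold change, an adjusted and an unadjusted p-value from the authors' own comparison. The submitters' processing notes name hg38, HISAT2 (an aligner) and DESeq2; for the counter, annotation and strand setting the sources used here give nothing. Dividing by the worth of 1 read, 0.934 to 1.04, gave whole numbers within 0.001 for 100% of values, but for knockout 2 and control 3 that worth is so near 1 that rounding cannot be told apart.

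Genes with a mean of at least 10 were tested with two-sided limma-trend tests (limma 3.58.1 in R 4.3.3) of log2(value + 1), with Benjamini-Hochberg adjustment over the 19860 genes the authors adjusted over. The tests ran on all 7516 such genes and were tested on simulated data. Counting intervals and the 3-read floor cover counting error only. Within a group, chi-square per degree of freedom between libraries was 3.78 to 11.6, above counting noise, so none was treated as a repeat.

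Members and gene lists were chosen with earlier results of these data known. Named members were the 10 with the largest change in each direction that averaged 50 or more without overlap, up to 3 per chromosome 19 cluster, up to 6 per smaller prefix, the 5 highest in mean, the genes of the lists and KMT5A. Any other gene named, such as those with no reads in one group, the chromosome 19 neighbours and the co-repressors singled out, was chosen after values were seen. Coding sequences, overlaps and shared 50-base words come from GENCODE release 29, whose positions matched for 229 of 229 members; 127 members overlap a gene on the opposite strand and 74 one on the same strand, so their reads are uncertain. Alternatives included edgeR 4.0.16 and DESeq2 1.42.0 on recovered reads.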

Additional observations from a re-analysis of the deposited data

How the results depend on the processing

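The directions of the 211 called members held under every scaling, test, filter and pseudocount tried and without each library in turn, with 0 sign changes. Between 177 and 211 of them stayed called in the same direction under those settings, fewest without knockout 2 or control 1. Members called higher numbered 31 to 34 and lower 145 to 163 when each library was left out, and on chromosome 19 higher 10 to 12 and lower 35 to 44. The replicate numbers do not pair the libraries: correlations of same-numbered deviations were 0.0086, -0.0033 and -0.050, and a replicate block gave 38 higher and 169 lower members. With a mean of at least 50, 9 chromosome 19 members were higher. At a log2 fold change of at least 1, 8 members were higher and 24 lower, and on chromosome 19 6 were higher and 6 lower. The median over all genes turned to -0.12 with no filter and in the authors' deposited table, where that of the members was -0.47. edgeR called 38 higher and 182 lower, and DESeq2 36 and 172.

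Of the settings that keep the call threshold, removing the median of other genes within 2 Mb was the one that turned signs. It left 22 members higher and 146 lower, 7 of the higher ones on chromosome 19, with a member median of -0.59 against -0.01 for all genes; 150 of the 211 stayed called and 21 changed sign. Among named genes it turned ZBTB26 to 0.03, ZFP64 to 0.032, ZNF609 to -0.148, ZNF281 to 0.458, ZNF76 to -0.044, ZNF263 to 0.011, ZNF335 to 0.232, ZNF598 to 0.102 and CBX3 to -0.5; of these ZNF281 and CBX3 were called there (adjusted p of 4.28e-05 and 1.66e-06 in limma). This was checked for members and for the genes named; over the co-repressor list it turned the sign of 7 of 25 called genes, and over C2H2 genes with other symbols of 6 of 55. Where fewer than 5 other tested genes outside the family lay within 2 Mb, nothing was removed, as for ZBTB10, ZBTB14, ZNF217 and ZNF277. Calls of such members could not turn in that setting. Removing a gene length trend kept 180 calls, with 0 sign changes. Without chromosomes 9, 10, 16, 17 and 20, a choice made after seeing the data, 36 were higher and 125 lower; with members sharing at most 10% of their 50-base words, also chosen so, 35 and 162. The cause of these shifts was not tested. Genes outside the table were not analysed, and the listed genes were selected on the same contrast.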

Other observations

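C2H2 genes with other symbols went the same way as the members. Of 109 such genes on a list, 60 were in the table and 57 tested, with 11 higher and 44 lower and a median log2 fold change of -0.61. BCL6, a BTB zinc finger repressor, had 104, 140.0 and 155 in the knockout libraries, against 1509, 1699 and 1689.6 in the control libraries. ZEB1, a repressor of epithelial genes, had 266, 318 and 313 in the knockout libraries, against 1647, 1552 and 1468 in the control libraries, and KLF6 had 962, 1071 and 1135 in the knockout libraries, against 2782, 2775 and 2926 in the control libraries. IKZF1, which encodes the lymphoid regulator Ikaros, was among the higher ones, with 3091, 3193 and 3193 in the knockout libraries, against 2623, 2746 and 2711 in the control libraries. The 4 genes were picked after their values were seen.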
